A study of Mus musculus with 6 samples.

Results

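The ATP-binding cassette (ABC) transporter genes other than the cholesterol exporter genes Abca1 and Abcg1 were examined in microglia of the mouse, macrophages that reside in the brain. Members were every row of the deposited gene table whose symbol is Abc, one letter from a to g, a number and an optional final letter, leaving out Abca1 and Abcg1. This gave 39 of the 26096 genes. The rule also takes in Abce1 and Abcf1 to Abcf3, which carry no membrane part, and the sterol exporters Abcg4 and Abcg5. It leaves out the ABC proteins named otherwise (Tap1, Tap2 and Cftr). In 3 samples, wild-type (WT) microglia had been given culture medium taken from ferroptotic bone marrow-derived macrophages (FeM CM), and in 3 samples WT microglia had been given medium from normal bone marrow-derived macrophages (C CM). Ferroptosis is an iron-dependent cell death driven by lipid peroxidation. How ferroptosis was brought about, how long the microglia were exposed, and the age and origin of these cells are details that the labels leave out.

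ABC transporters bind and split ATP on a pair of nucleotide-binding domains and use that energy to move a cargo across a membrane, mostly outward from the cytosol. Subfamily A moves lipids, B holds the drug exporter P-glycoprotein and several mitochondrial and lysosomal carriers, and C exports organic anions, among them glutathione conjugates, leukotriene C4, prostaglandins and cyclic nucleotides. Subfamily D serves peroxisomes and lysosomes, E and F act on ribosomes in translation, and G moves sterols, urate and drugs. In the brain these genes are best known from the endothelium of the blood-brain barrier, and in macrophages from lipid and eicosanoid release.

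The libraries held 39624311 to 50557794 reads assigned to genes, as worked out from the deposited values. Of the 10 microglia and macrophage markers, summed levels lay at 143341 to 147614 normalized counts with control medium and at 120385 to 124920 with ferroptotic medium. Csf1r, Cd68, Tyrobp and Fcer1g were abundant, while P2ry12 (3 reads over the 6 libraries) and Tmem119 (21 reads) were nearly absent. The labels do not state separate cultures for the 3 samples of a group, so each p-value reflects the scatter among these libraries and that scatter may be technical. As a bulk measurement, the data cannot tell fewer cells that express a gene from less RNA of that gene per cell.

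Most of the measured family changed, in both directions. Of the 39 members, 29 reached 10 normalized counts in 3 or more libraries and were tested with limma, and 19 of these passed an adjusted p of 0.05. That is 65.5%, where 42.5% of all 15597 tested genes passed. Of the 29, 11 or 37.9% rose (19.7% of all tested genes rose), and 8 of 29 fell, or 27.6% (22.8% of all tested genes fell). The median log2 fold change was 0.06 over the 29 members and -0.0050 over all tested genes, and the median absolute change was 0.45 and 0.29. Changes were mostly small: only Abca8b and Abcc1 passed both the test and a 2-fold change, as 7.65% of all tested genes did. The groups did not overlap in 23 of the 29 members, as in 53.7% of all tested genes. In 13 members every library with ferroptotic medium lay above every control library (25.6% of all tested genes), and in 10 every one lay below (28.2%). Abundance bears on these counts. Of 23 members with a mean of at least 100 normalized counts 18 passed, where 52.2% of the 11497 tested genes of that abundance did, and of the 6 members below that mean only Abca8b passed. Abca8b cleared the filter only through the libraries in which it was high, so it had to differ, and without it 18 of 28 passed (64.3%), 10 higher and 8 lower. Of those 28, every library with ferroptotic medium lay above every control library in 12, and 1 passed with a 2-fold change. In the authors' deposited table, 20 members had a false discovery rate under 0.05, 11 higher and 9 lower; the extra gene was Abca2 (0.0355).

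**Figure D1:**
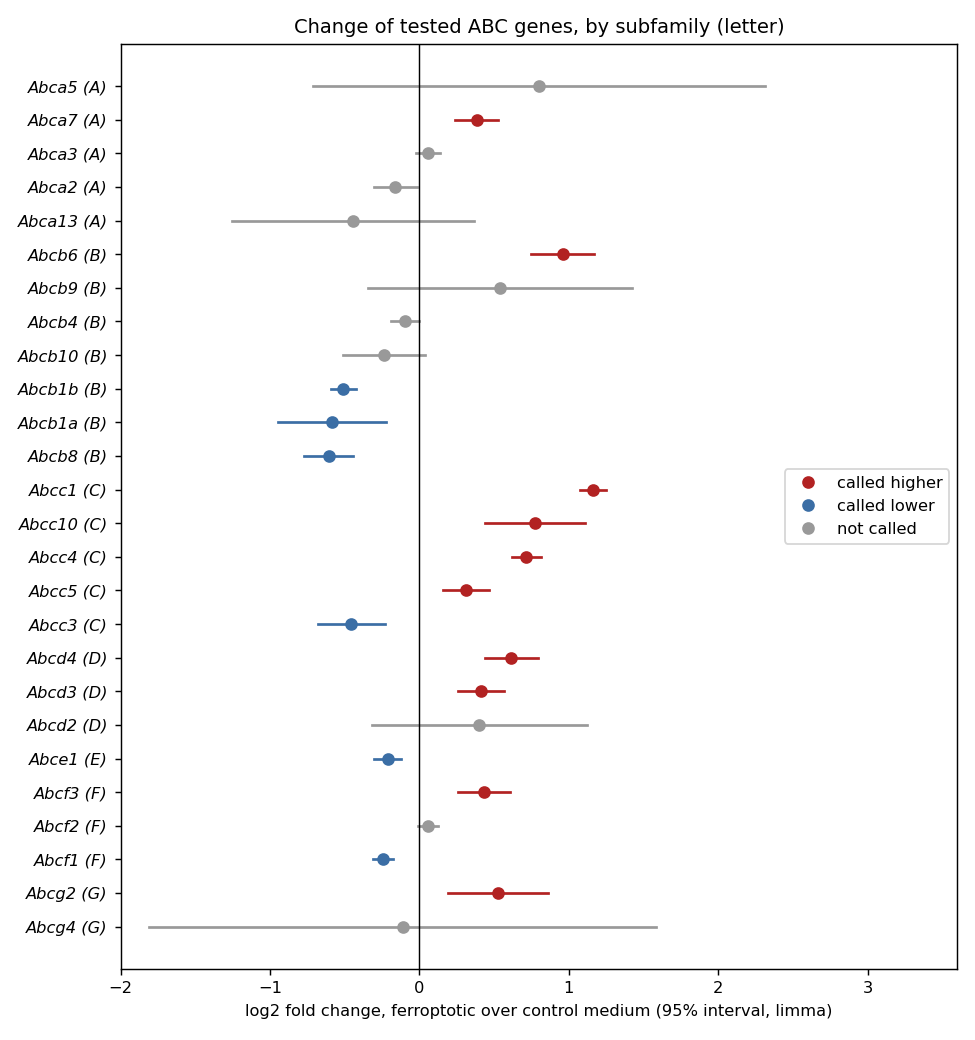
Log2 fold change (horizontal axis, ferroptotic over control medium) of 26 tested ABC genes, with the subfamily letter in brackets; points are limma estimates and lines their 95% intervals. Abca8b, which had 0 reads in the controls, is left out of the plot. Red genes passed as higher, blue as lower, and the widest intervals belong to Abcg4 and Abca5, which rest on few reads.

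Subfamily C, the organic anion exporters, had all 5 of its tested members past the threshold, 4 higher and 1 lower. Over all tested genes 42.5% passed, 19.7% higher and 22.8% lower. Of those with a mean of at least 100 normalized counts, as all 5 had, 52.2% passed. Abcc1 (ENSMUSG00000023088), the multidrug resistance protein that exports glutathione, oxidized glutathione and leukotriene C4, had 14027, 15003 and 15504 normalized counts with control medium and 33406, 32922 and 33305 with ferroptotic medium. The groups lay far apart and the libraries given ferroptotic medium differed little among themselves. Abcc1 rose 2.24-fold (log2 fold change 1.16, SE 0.04; limma adjusted p = 9.25e-08). In the authors' deposited table it went from a mean of 20.5 ± 0.951 to 45.2 ± 0.430 FPKM (SD, n = 3 per group). Abcc4 (ENSMUSG00000032849), which exports cyclic nucleotides and prostaglandins, had 3580, 3875 and 3753 normalized counts in the controls and 6078, 6014 and 6320 in the others. It too was higher in every library given ferroptotic medium, by 0.72 on the log2 scale (SE 0.04; limma adjusted p = 2.75e-06).

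Abcc10 (ENSMUSG00000032842), a lipophilic organic anion and drug exporter, was scarcer, with 238, 303 and 212 normalized counts in the controls and 474, 412 and 392 with ferroptotic medium. The groups did not overlap although the control libraries spread widely, and the log2 fold change was 0.77 (SE 0.15; limma adjusted p = 0.0028). Abcc5 (ENSMUSG00000022822), a further exporter of cyclic nucleotides, rose less, with means of 1920 ± 122 and 2379 ± 146 normalized counts (SD over 3 libraries; log2 fold change 0.31, SE 0.07; limma adjusted p = 0.0055). Abcc3 (ENSMUSG00000020865), which exports glucuronides and bile salts, was the member that fell, with 809.9, 934 and 775 normalized counts in the controls and 591, 669 and 573 with ferroptotic medium. All 3 of the latter lay below all 3 of the former (log2 fold change -0.46, SE 0.10; limma adjusted p = 0.0052). Abcc2, Abcc6 and Abcc8 were too scarce to test.

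**Figure D2:**
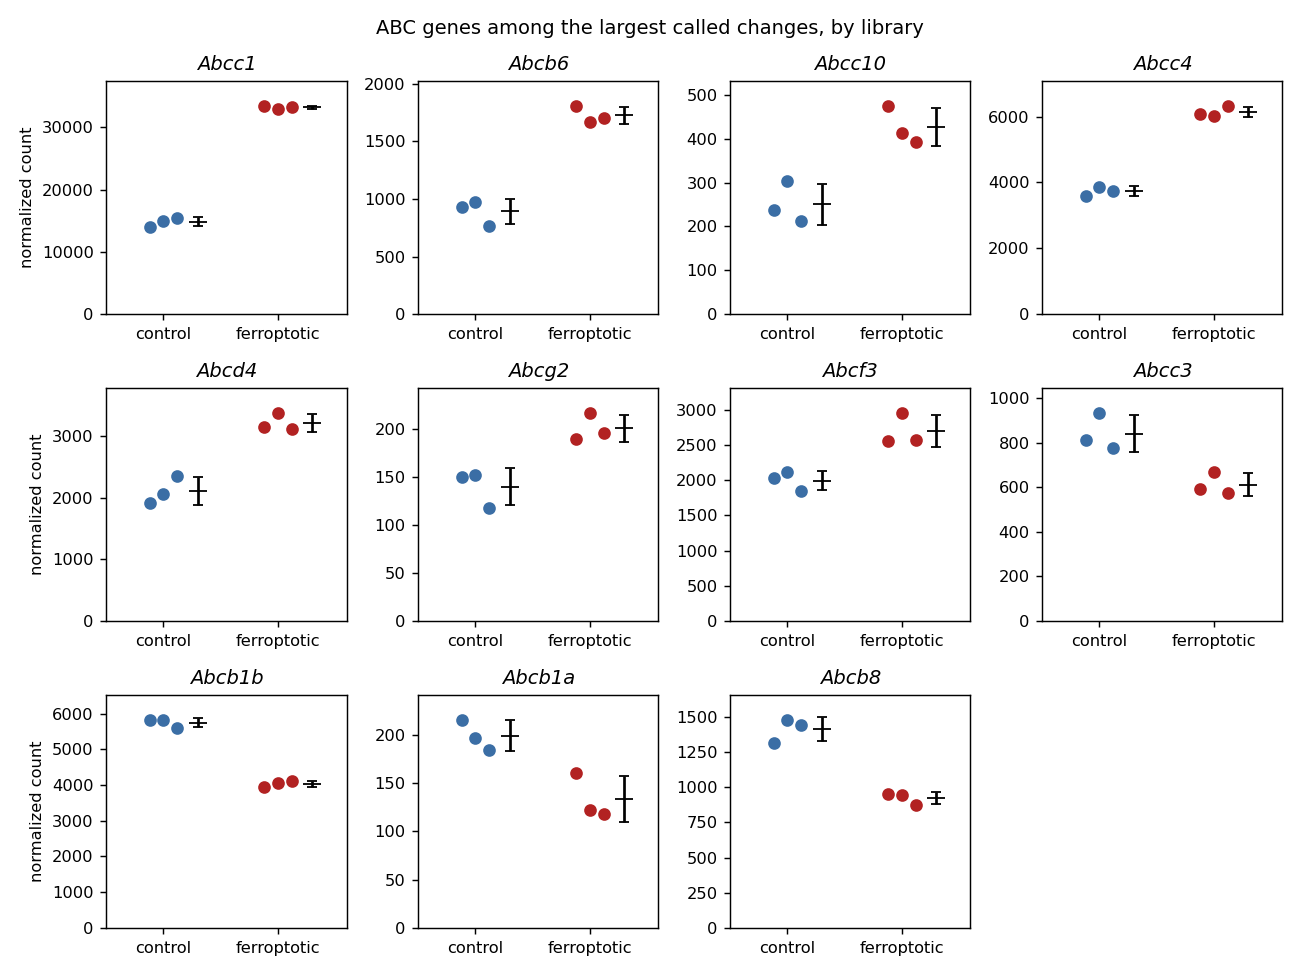
Normalized counts (vertical axes, each starting at 0) of 11 called ABC genes among those with the largest changes and a mean of at least 50 normalized counts in the higher group, 1 point per library; bars give the mean and SD over 3 libraries. The groups do not overlap in any of the 11 panels, a separation that picking called genes with large changes favours. Among all tested genes 53.7% do not overlap. Abcc1 is highest with 32922 to 33406 normalized counts after ferroptotic medium.

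Promoter letters were compared among members that moved. RefSeq windows (GRCm38.p6, 250 bases before to 50 after a start) were at hand for 21 of the 29 tested members, in 27 windows; Abcb8, Abcc1, Abcc3, Abcd2, Abcd4 and Abcg4 are among those with no entry. The core of the antioxidant response element, TGACNNNGC on either strand, is bound by NRF2, a factor known to drive several subfamily C genes. It stood in 5 of 14 windows of the 9 members that rose (Abcc4, Abcc10 and Abca8b), in 1 of 4 windows of the 4 that fell (Abcb1a) and in 0 of 9 windows of the 8 that did not pass. Of all 32851 windows with this length, 12.4% held it. Abcc4 and Abcc10 each gave 2 of the 5 windows, and Abca8b, which had to differ to clear the filter, gave 1. Windows of 1 gene are not independent. By gene, the core stood in 3 of the 9 that rose, 1 of the 4 that fell and 0 of the 8 that did not pass. Its place differed: it began 25 and 23 bases before the 2 starts of Abcc4 and 203 bases before 1 start of Abcc10, but 11 bases after the other start of Abcc10, 11 bases after that of Abca8b and 26 bases after that of Abcb1a. The 250 bases before the start are shown for the 3 windows in which the core lies there, to place it against the start, which follows the last base. They run 5′ to 3′ on the gene's strand, here the minus strand, with the core in capitals; no core overlapped another motif searched.
Abcc4, chr14:118706220-118706469: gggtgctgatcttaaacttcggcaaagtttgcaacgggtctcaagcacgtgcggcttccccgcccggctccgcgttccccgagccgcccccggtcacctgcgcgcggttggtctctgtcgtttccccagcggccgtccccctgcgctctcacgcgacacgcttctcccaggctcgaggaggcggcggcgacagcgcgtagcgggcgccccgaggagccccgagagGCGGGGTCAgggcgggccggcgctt
Abcc4, second start, chr14:118676932-118677181: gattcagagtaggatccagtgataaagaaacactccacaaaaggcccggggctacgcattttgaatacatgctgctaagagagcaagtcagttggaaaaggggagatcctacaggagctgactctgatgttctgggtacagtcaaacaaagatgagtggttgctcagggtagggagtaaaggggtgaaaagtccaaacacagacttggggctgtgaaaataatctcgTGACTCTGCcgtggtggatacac
Abcc10, chr17:46328024-46328273: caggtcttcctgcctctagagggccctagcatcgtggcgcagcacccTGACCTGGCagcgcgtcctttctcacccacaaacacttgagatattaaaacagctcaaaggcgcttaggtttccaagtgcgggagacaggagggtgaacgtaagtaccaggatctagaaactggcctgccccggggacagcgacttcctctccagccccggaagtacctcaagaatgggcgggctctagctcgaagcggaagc
On both strands and in the same order of members that rose, fell and did not pass, the core of the ATF4-CHOP composite element, TGATGNAA, stood in 0 of 14, 0 of 4 and 1 of 9 windows (3.97% of all). An NF-kB core, GGGA and CC set 4 bases apart, stood in 3 of 14, 0 of 4 and 5 of 9 (20.7% of all). The xenobiotic response element core TTGCGTG (1.16% of all windows) and the E2F core TTTCCCGC (1.07%) stood in 0 of the 27. A match describes letters only, and the absence of one says only that these letters are not in the window.

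In subfamily B, 1 of 8 tested members rose, 4 fell and 3 did not pass (19.7% of all tested genes rose and 22.8% fell). The riser was Abcb6 (ENSMUSG00000026198), a carrier of mitochondrial and endolysosomal membranes studied for porphyrin transport, with 932, 974 and 768 normalized counts in the controls and 1806, 1667 and 1700.1 with ferroptotic medium. The groups were well apart (log2 fold change 0.96, SE 0.09; limma adjusted p = 5.22e-05). In GENCODE M21, 55.2% of the exon bases of Abcb6 also belong to a gene model on the same strand, Gm29253, so reads can be split between them. That model had 0.979, 15.1 and 249 normalized counts in the controls and 1.06, 0 and 3.32 in the others, and was high in the control library with the least Abcb6. With the Abcb6 and Gm29253 models summed, an alternative chosen after the data were seen, means were 979.8 ± 42.7 and 1726 ± 72.5, and the log2 ratio of means was 0.82 in place of 0.95.

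Abcb8 (ENSMUSG00000028973), an inner membrane protein linked to mitochondrial iron export, had 1315, 1479 and 1440.0 normalized counts in the controls and 953, 947 and 875 with ferroptotic medium. It was lower in every such library (log2 fold change -0.61, SE 0.07; limma adjusted p = 0.00016). Abcb10, an inner membrane protein of haem synthesis, had 197 ± 11.8 and 167 ± 8.90; the groups did not overlap, but the limma adjusted p was 0.153 (log2 fold change -0.24, 95% interval -0.51 to 0.04).

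P-glycoprotein, the broad drug exporter of the plasma membrane, is encoded in mice by the neighbouring genes Abcb1a and Abcb1b, and both fell. Abcb1b (ENSMUSG00000028970) had 5812, 5832 and 5598 normalized counts in the controls and 3950.4, 4046 and 4121 with ferroptotic medium (log2 fold change -0.51, SE 0.04; limma adjusted p = 9.82e-06). Abcb1a (ENSMUSG00000040584), the form typical of brain endothelium, was far scarcer per kilobase, with 215, 197 and 184 normalized counts against 161, 122 and 117 (log2 fold change -0.58, SE 0.16; limma adjusted p = 0.0165). Abcb1a lost its call without control replicate 1 (limma adjusted p = 0.0586) or without ferroptotic replicate 2 (0.0530) or 3 (0.0513). The copies are close: 17.6% of the distinct 50-base stretches of Abcb1a transcripts also occur in transcripts of other genes, and 16.3% in Abcb1b alone, so reads of Abcb1a are uncertain. The summed level of the endothelial markers that the table held (6 of 10) was 2106 to 2356 normalized counts in the controls and 2248 to 2438 in the others, most of it Flt1, and its part in these results was not tested. Abcb4, the phosphatidylcholine exporter next to them, had 4367 ± 166 and 4091 ± 44.2 (log2 fold change -0.09, 95% interval -0.19 to 0.00043; limma adjusted p = 0.102). Abcb9, a lysosomal peptide carrier, had 17.4 ± 1.92 and 27.0 ± 10.2 normalized counts (limma adjusted p = 0.308).

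Abcd3, Abcd2 and Abcd4 are carriers of peroxisomes and lysosomes in subfamily D. Abcd3 (ENSMUSG00000028127), the abundant peroxisomal membrane protein that takes up branched-chain and dicarboxylic acids, rose from 2072 ± 102 to 2759 ± 212 (log2 fold change 0.41, SE 0.07; limma adjusted p = 0.0012). Abcd2, a peroxisomal carrier of fatty acids, had 30.1 ± 6.50 and 40.8 ± 13.6 (limma adjusted p = 0.350). Abcd4 (ENSMUSG00000021240), which sends vitamin B12 out of lysosomes, had 1911, 2053 and 2351 normalized counts in the controls and 3150, 3377 and 3114 in the others. It rose by 0.61 on the log2 scale (SE 0.08; limma adjusted p = 0.00025).

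Of the translation factors of subfamilies E and F, Abce1 and Abcf1 fell, Abcf3 rose and Abcf2 did not pass. Abce1 (ENSMUSG00000058355), which parts the ribosomal subunits after termination, went from 13691 ± 308 to 11811 ± 491 normalized counts (log2 fold change -0.21, SE 0.04; limma adjusted p = 0.0019). Abcf1 (ENSMUSG00000038762), which binds the initiation factor eIF2, went from 9895 ± 114 to 8368 ± 94.2 (log2 fold change -0.24, SE 0.03; limma adjusted p = 0.00023). Both fell in every library. Abcf3 (ENSMUSG00000003234), a relative of the yeast activator of the eIF2 kinase GCN2, had 2033, 2109 and 1838 normalized counts in the controls and 2556, 2954 and 2568 with ferroptotic medium, a rise of 0.43 (SE 0.08; limma adjusted p = 0.0016). Abcf2 had 9688 ± 92.0 and 10076 ± 96.3; its groups did not overlap, yet the change of 0.06 (95% interval -0.01 to 0.12) had a limma adjusted p of 0.153.

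In the lipid carriers of subfamily A, Abca7 and Abca8b were counted as higher and 0 of 6 tested members fell. Of all tested genes 19.7% rose and 22.8% fell. Abca8b (ENSMUSG00000020620), a member of a cluster of neighbouring subfamily A genes, had 0 reads in each of the 3 control libraries and 41.5, 48.1 and 35.4 normalized counts with ferroptotic medium, 118 reads in all. Set against a floor of 3 reads over the control group, its mean of 41.7 ± 6.33 was at least 44.7-fold higher. It passed the filter only through these libraries, so its p is not given as support. The level stayed very low, at a mean of 0.114 ± 0.0175 FPKM in the authors' deposited table. Of its distinct 50-base stretches 1.42% also occur in Abca8a. Fibroblasts are known for genes of this cluster. Of 6 fibroblast markers 5 had values. They summed to 11.7 to 11.8 normalized counts in the controls and 44.0 to 76.4 with ferroptotic medium. Most of these counts were of Dcn (28 and 113 reads) and Lum (3 and 36 reads). The collagen genes Col1a1 (4 and 6 reads), Col1a2 (1 and 0) and Col3a1 (2 and 4) were near 0. The part of the fibroblast markers in the rise of Abca8b was not tested.

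Abca7 (ENSMUSG00000035722), a phospholipid carrier linked to phagocytosis whose human counterpart is an Alzheimer's disease risk gene, rose from 3203 ± 172 to 4184 ± 299 normalized counts (log2 fold change 0.38, SE 0.06; limma adjusted p = 0.0012). Abca3, the lamellar body phospholipid carrier of lung surfactant, had 4715 ± 94.9 and 4911 ± 46.5 (log2 fold change 0.06, 95% interval -0.02 to 0.14; limma adjusted p = 0.224), and it passed with quantile normalization (0.12, limma adjusted p = 0.0252). Abca2, an endolysosomal lipid carrier typical of oligodendrocytes, had 3168 ± 195 and 2832 ± 177 (log2 fold change -0.16, SE 0.06; limma adjusted p = 0.0694), and it passed without ferroptotic replicate 1 (-0.21, limma adjusted p = 0.0263). Of 8 oligodendrocyte markers 5 had values, and Mog, Mobp and Olig2 had none. The 5 summed to 8821 to 9383 and to 6139 to 6351 normalized counts, a difference whose part in these values was not tested. Of these 5 markers 3 fell, 1 rose and 1 did not pass. Mbp (-0.69) carried most of the sum, Cldn11 went from 921 to 336 reads over the libraries of each group, and Mag (1.01) rose. Abca5 (9.89 ± 4.92 and 19.1 ± 11.1) and Abca13 (33.4 ± 6.24 and 25.3 ± 10.9) were scarce, their groups overlapped, and neither passed (limma adjusted p = 0.376 and 0.353).

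In subfamily G, Abcg2 (ENSMUSG00000029802), the exporter of urate, porphyrins and many drugs, had 149.8, 152 and 117 normalized counts in the controls and 189, 217 and 196 with ferroptotic medium. No value of the 2 groups overlapped, and the log2 fold change was 0.53 (SE 0.15; limma adjusted p = 0.0192), but the call was lost without control replicate 3 (limma adjusted p = 0.0598) or ferroptotic replicate 2 (0.0666). Abcg4, a sterol exporter, had 15.4 ± 3.97 and 18.9 ± 14.1 (limma adjusted p = 0.919). Its libraries given ferroptotic medium ranged from 3.32 to 30.8 normalized counts and straddled the controls.

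Of the 39 members, 10 stayed below the minimum and were not tested: Abca4, Abca12, Abca14, Abca16, Abca17, Abcb11, Abcc2, Abcc6, Abcc8 and Abcg5. They had between 2 and 16 reads over the 6 libraries, with Abcc2, the canalicular relative of Abcc1, at the top (13 reads in the controls and 3 in the others). Abcc8, the sulfonylurea receptor, had 0 and 5 reads, and Abcb11, the bile salt exporter, had 3 and 5. A difference in these genes could not be tested at these read numbers.

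Levels per length show which members carry the family. Per kilobase of exon in GENCODE M21, Abcf2 (3771 ± 35.8 normalized counts per kb), Abce1 (2280.3 ± 51.3) and Abcf1 (2244 ± 25.8) led in the controls; the latter 2 differed by less than the SD of Abce1. Abcc1 followed at 984 ± 49.8 and was the highest of the membrane transporters, ahead of Abcb1b (719 ± 16.3), while Abcc4 had 585 ± 23.3 and ranked 7. With ferroptotic medium Abcc1, at 2201 ± 16.9 per kb, ranked 2 behind Abcf2, and Abcc4, at 961 ± 25.2, ranked 5. The lowest tested levels with ferroptotic medium were those of Abca13 (1.28 ± 0.553 per kb) and Abca5 (1.67 ± 0.969), which lay within their SDs of each other.

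Summed per kilobase, the 29 members gave 15595 ± 204 normalized counts in the controls and 16773 ± 39.7 with ferroptotic medium. Subfamily C made up 11.9%, 12.7% and 12.5% of that sum with control medium and 21.2%, 21.0% and 21.3% with ferroptotic medium, with no overlap. Abcc1 alone went from 6.31% ± 0.249 to 13.1% ± 0.110 (SD, n = 3 per group). Subfamily B went from 14.3% ± 0.330 to 11.5% ± 0.0600, and the translation factors of E and F together from 56.8% ± 0.674 to 50.9% ± 0.331. As the sum itself grew, a lower share need not be a lower level. Per kb, Abce1 (2280 to 1967) and Abcf1 (2244 to 1897) were lower with ferroptotic medium. Abcf3 was higher (560 to 757), and Abcf2, which did not pass, had 3771 and 3922. The length used matters. With the transcript that has the longest coding sequence, 6792 in place of 15092 bases for Abcc1, its share was 9.85% ± 0.355 and 19.6% ± 0.214, and it ranked 1 with ferroptotic medium; Abcc4 then ranked 10 in the controls.

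**Figure D3:**
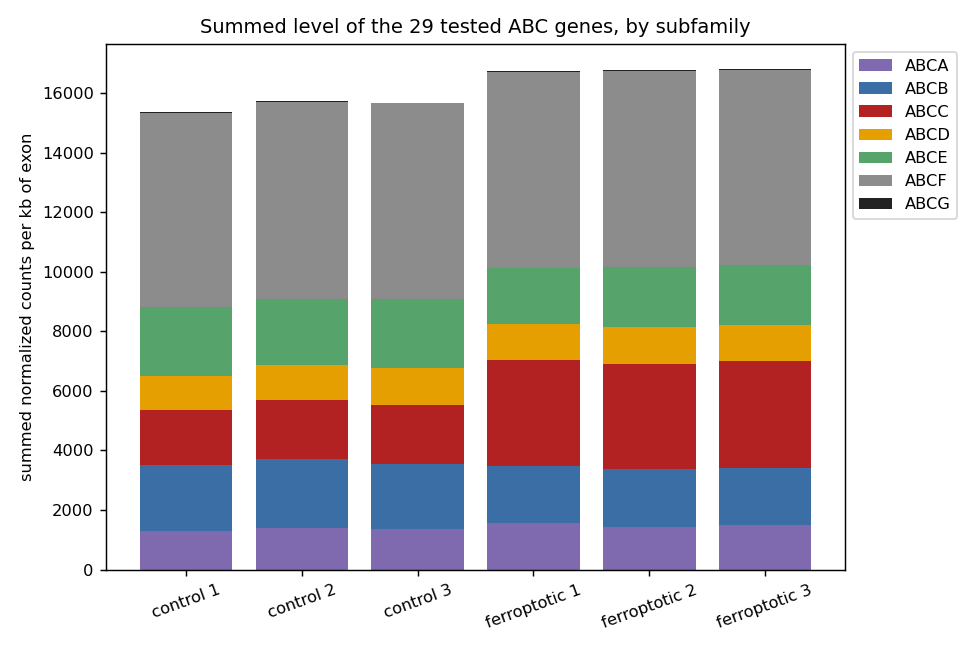
Summed level of the 29 tested ABC genes (vertical axis, normalized counts per kb of exon) in each library, stacked by subfamily. The ABCC segment takes 11.9% to 12.7% of the bar with control medium and 21.0% to 21.3% with ferroptotic medium, while the ABCB and ABCE segments are smaller with ferroptotic medium.

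Because a ratio of genes within a library does not depend on scaling between libraries, 4 pairs of related members were set side by side. The pairs were chosen after their values were seen, so the ratios are a description. The log2 ratio of Abcc1 to Abcc3 was 4.11, 4.01 and 4.32 in the controls and 5.82, 5.62 and 5.86 with ferroptotic medium, and it went from a mean of 4.15 ± 0.16 to 5.77 ± 0.13. Abcb6 over Abcb8 went from -0.67 ± 0.21 to 0.90 ± 0.07, so the order of this pair by normalized counts turned, and Abcf3 over Abcf1 from -2.31 ± 0.11 to -1.64 ± 0.13. In these 3 pairs no values overlapped between the groups. By contrast the ratio of Abcb1a to Abcb1b, the P-glycoprotein copies, was -4.85 ± 0.09 and -4.93 ± 0.27, with overlap. This ratio is uncertain, as 16.3% of the distinct 50-base stretches of Abcb1a also occur in Abcb1b.

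**Figure D4:**
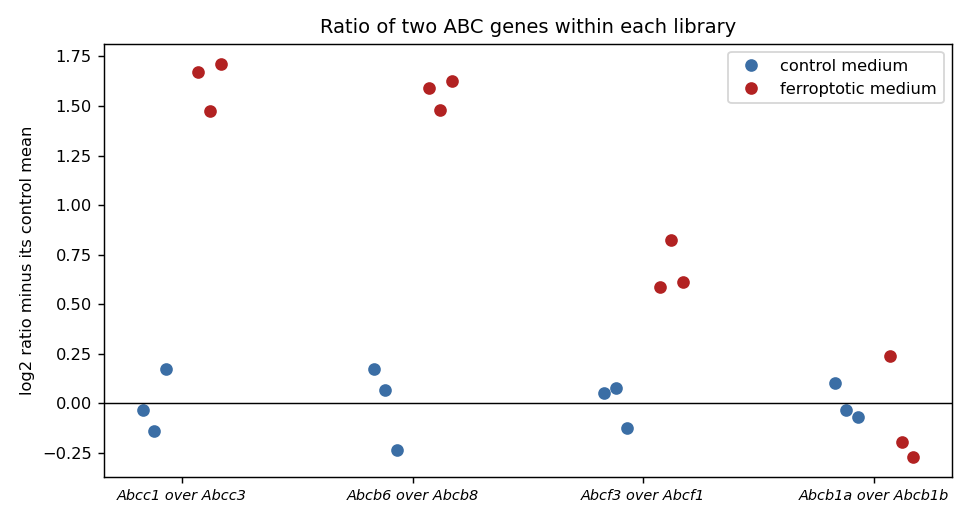
Log2 ratio of one ABC gene to another within each library, after subtracting the mean of the 3 control libraries (vertical axis), for 4 pairs; each point is 1 library. Red points (ferroptotic medium) lie above all blue points (control medium) for the first 3 pairs and mix with them for Abcb1a over Abcb1b.

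Genes that make, break down or share the cargo of these transporters were counted next, by lists chosen with earlier results of these data known. For comparison, the median log2 fold change of all tested genes was -0.0050, and 19.7% of them rose and 22.8% fell. The glutathione list, for a cargo of subfamily C, held genes of cystine import and of glutathione synthesis, recycling, conjugation and breakdown. Of its 15 tested genes 10 rose (66.7%), 1 fell (6.67%) and the median was 0.49. The cystine importer genes Slc7a11 (2.75) and Slc3a2 (1.24) and the glutathione-degrading enzyme gene Chac1 (3.63) had the smallest adjusted p-values. Ltc4s, which makes the Abcc1 cargo leukotriene C4, had 187 and 184 normalized counts (limma adjusted p = 0.884). Of 11 eicosanoid genes 3 rose, namely the prostaglandin synthase genes Ptgs2 (4.20), Ptges (2.04) and Ptgs1 (0.35), and 4 fell, namely Ptges3 (-0.21), Ptges2 (-0.25), Hpgds (-0.40) and Hpgd (-2.02), the last of which breaks prostaglandins down; the median was -0.02.

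Of 18 genes of iron-sulfur cluster assembly 4 rose and 4 fell, 22.2% each and near the shares over all tested genes (median 0.03). The mitochondrial iron importer gene Slc25a37 (0.81) and the scaffold gene Nubp1 (-0.60) were among those with the smallest adjusted p-values. Of 11 haem synthesis genes, Slc25a37, the first enzyme Alas1 (0.46), Tspo (0.25) and Cpox (0.21) rose and Alad (-0.56) fell (median -0.03).

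Of 25 peroxisome genes 8 rose and 6 fell (median 0.13). The catalase gene Cat (1.32) and the fatty acid transporter gene Slc27a4 (0.62) were among those with the smallest adjusted p-values, and the import gene Pex10 (-0.60) had the deepest fall of the list. Of 10 vitamin B12 genes Lmbrd1 (0.49), the lysosomal partner of Abcd4, and the carrier gene Tcn2 (0.57) rose. The methionine synthase gene Mtr (-0.37), Mmachc (-0.40), Mmab (-0.34) and the uptake receptor gene Cd320 (-0.25) fell (median 0.0065).

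Of 15 ribosome recycling genes 4 rose, namely Zfp598 (0.57), Denr (0.42), Hbs1l (0.30) and Eif1 (0.22), and 4 fell, namely Gspt1 (-0.53), Ltn1 (-0.24), Eif2d (-0.25) and Ascc3 (-0.16), with a median of -0.06. Of 15 genes of eIF2, its kinases and their activator, its phosphatase and its exchange factor, 2 rose and 5 fell (median -0.07). The phosphatase subunit genes Ppp1r15a (1.01) and Ppp1r15b (0.22) rose, and the interferon-inducible kinase gene Eif2ak2 (-0.69) had the deepest fall. Of 11 peptide loading genes 4 rose and 5 fell (median -0.11). The half-transporters Tap1 (-0.63) and Tap2 (-0.23), ABC proteins outside the naming rule, were among those that fell, with Tapbp (-0.63), Erap1 (-0.36) and Canx (-0.11). Tapbpl (0.40), Calr (0.08), B2m (0.10) and H2-D1 (0.10) rose. The cholesterol exporters left out of the set moved apart, Abca1 by 2.11 and Abcg1 by -0.65.

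Of 20 transcription factors known to drive ABC genes 7 rose and 5 fell (median 0.13). Tfe3 (0.38) rose and the p53 gene Trp53 (-0.42) and the sterol factor gene Srebf1 (-0.37) fell with the smallest adjusted p-values. The NRF2 gene Nfe2l2 rose by 0.16, from 4822 to 5407 normalized counts (limma adjusted p = 0.0136). The liver X receptor genes Nr1h2 (-0.17, limma adjusted p = 0.117) and Nr1h3 (-0.08, 0.679) did not pass.

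**Figure D5:**
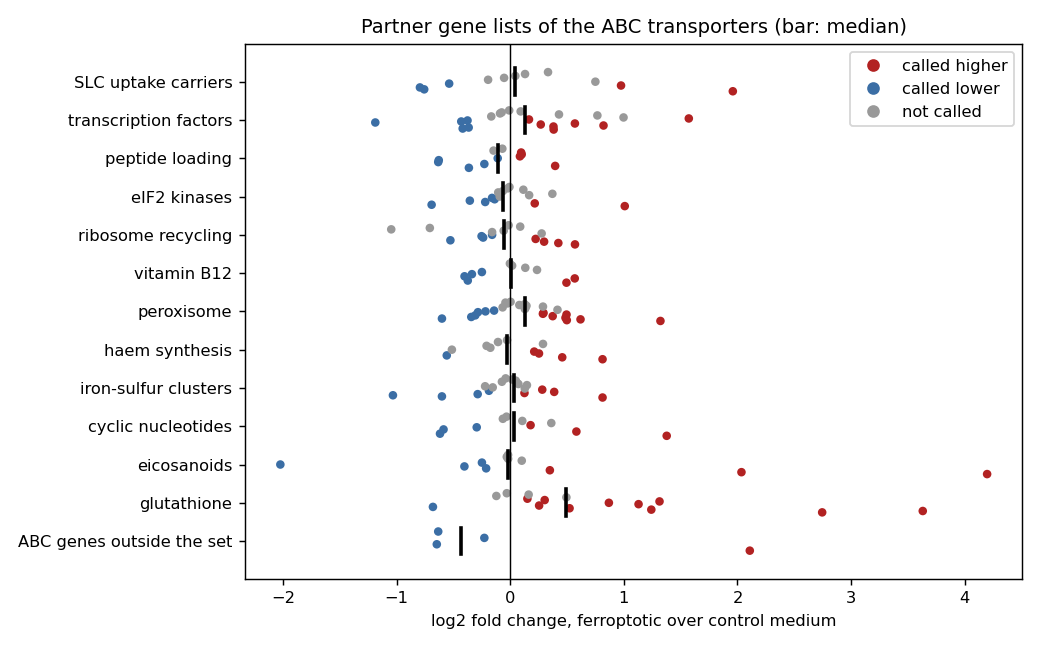
Log2 fold change (horizontal axis, ferroptotic over control medium) of each tested gene in 13 lists of partner genes; red passed as higher, blue as lower, grey did not pass, and black bars are list medians. The glutathione list has the highest median, 0.49, and the remaining lists centre near 0 except the 4 ABC genes outside the naming rule (-0.43).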

How the data were processed

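RNA of 6 microglia samples was made into mRNA-seq libraries for Illumina sequencing, per the labels' protocols. The submitters' processing notes name R 3.4.3, DESeq2 1.18.1, fastp 0.17.1 and HISAT2 2.1.0. No source used here gives the build, annotation, counter or use of strand, so no coordinates are taken from the authors' files, and those of promoter windows are RefSeq's. The authors deposited log2 values for each library, group means, log2 fold changes, p-values with a false discovery rate, and FPKM for 1699 genes. Undoing the log gave whole multiples (within 0.01) of 1 read for 100% of values, that is log2(count divided by a size factor, plus 1). A count of 3 was more frequent than 2 (6101 and 5169 values), so these may be estimated counts. A fold change on this scale understates low genes.

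The test was limma 3.58.1 (trend, robust, two-sided; R 4.3.3), run on those log2 values for the 15597 genes that reached 10 normalized counts in 3 or more libraries, with Benjamini-Hochberg adjustment over all of them and a threshold of 0.05. It was tested on simulated data. SE is limma's, and each mean ± SD covers the normalized counts of 3 libraries. Members and lists were chosen with earlier results of these data known. By the naming rule every tested member is named, apart from some genes that are not reported here although the counts include them, and values in each library are given for the others among the 12 called members with the largest changes among those with a mean of at least 50 normalized counts in the higher group. Of each list the rule names the 3 genes with the smallest adjusted p, and all called genes where 5 or fewer were called. Other genes named from the lists, the per-library values of Abca8b, the motifs and the lengths were chosen after their values were seen. GENCODE M21, which holds 99.8% of the gene IDs, gave exon lengths, overlaps and shared 50-base stretches. Alternatives were other filters, a pseudocount of 5, quantile normalization, limma-voom on whole reads, limma without trend and robust, a replicate block, and leaving out each library.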

Additional observations from a re-analysis of the deposited data

How the results depend on the processing

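The counts of 11 members higher and 8 lower held within 1.5 times under each of the 13 alternatives. They were 11 and 8 with a minimum of 1 normalized count, no filter, a pseudocount of 5 and limma-voom, 12 and 8 with quantile normalization, and 11 and 9 without trend and robust. Leaving out 1 library gave 9 to 11 higher and 7 to 9 lower, and 5788 to 6149 calls over all genes in place of 6629; without a ferroptotic library Abca8b was not tested. Over the tested members and alternatives, 364 values kept their direction and side of the threshold, 5 lost and 3 gained a call (Abca2, Abca3 and Abcb10, the last without trend and robust, limma adjusted p = 0.0467). The 2 that turned were both of Abcg4, 0.0071 with a pseudocount of 5 and 0.77 without ferroptotic replicate 3 (-0.67 to 0.77 on leaving out 1 library), and the cause was not tested. The replicate block gave 11 higher and 8 lower members and 6226 calls over all genes. Same-numbered samples did not deviate together (r = 0.0086, -0.0196 and -0.0393 across genes). With 3 libraries per group these values cannot settle whether the samples were paired, and the labels do not state a pairing. Lengths, the summed Abcb6 gene models and the pairs of genes were chosen after the data were seen. Genes under about 100 normalized counts have wide intervals, so a difference in them may not be detectable at this depth.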

Other observations

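Carriers that bring organic ions, nucleosides and drugs into cells, the inward counterparts of several ABC exporters, were counted from a list of 22 genes, of which 11 could be tested. The carnitine and ergothioneine transporter gene Slc22a4 (from 35.9 to 141 normalized counts, log2 fold change 1.96) and Slc22a17 (0.97) rose. The nucleoside transporter genes Slc29a1 (-0.76) and Slc29a2 (-0.80) and the carrier gene Slc22a15 (-0.54) fell, and the median was 0.04. The organic anion carrier gene Slco4a1 was abundant and did not pass, with 28489 and 27435 normalized counts (limma adjusted p = 0.202).

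Genes that make or break down cyclic nucleotides, cargo of Abcc4 and Abcc5, were also divided. Of 10 tested, the phosphodiesterase genes Pde4b (1.38), Pde1b (0.58) and Pde8a (0.18) rose, and Pde4a (-0.62), Pde2a (-0.59) and the adenylyl cyclase gene Adcy9 (-0.30) fell, with a median of 0.04. The abundant cyclase gene Adcy7 had 21329 and 22813 normalized counts (limma adjusted p = 0.459).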
